A study of Mus musculus with 4 samples.

Results

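This account covers 9 genes of acute myeloid leukaemia in mice: the homeobox genes Hoxa3, Hoxa4, Hoxa5, Hoxa6, Hoxa7, Hoxa9 and Hoxa10 and the genes of their DNA-binding partners, Meis1 and Pbx3. They were taken by name from the 23235 genes in the deposited tables, by a rule that uses no measured value. All libraries came from NRASG12V/Mll-AF9 leukaemia, which carries an NRAS oncogene repressible by doxycycline and the Mll-AF9 fusion, grown in SCID/Beige mice, immunodeficient hosts without functional B and T cells. In the off libraries doxycycline had switched NRASG12V off for 48 h, 72 h or 96 h, given both by injection and in the drinking water. The on library was from leukaemia with NRASG12V expressed. Each group held 1 library, 4 in all, and doxycycline and elapsed time cannot be told apart from loss of NRASG12V. The labels used here name neither the organ sampled nor the number of animals behind a library, and do not say whether the leukaemia is 1 clone. The comparison asks how these genes stood after NRASG12V expression was lost.

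Hoxa genes encode homeodomain transcription factors that lie in a row in 1 cluster, with low-numbered genes at its 3′ end and high-numbered genes at its 5′ end. In normal blood formation they are active in stem and progenitor cells and are shut down as myeloid cells mature. MLL fusion proteins keep the later Hoxa genes and Meis1 transcribed, and Hoxa9 with Meis1 is a well-known driver of self-renewal in this leukaemia. Meis1 and Pbx3 are TALE homeodomain proteins that bind DNA together with Hoxa proteins.

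The starts of 4 of these genes are shown, chosen after their changes were seen. Hoxa7 and Hoxa9 fell by limma's test described below, whereas Hoxa5, which lies in the same cluster, and Meis1 did not pass it. Hoxa5 too was lower in all off libraries. Each run is the RefSeq sequence of build GRCm38.p6 from 250 bases before to 50 bases after the start site, on the minus strand, with CG dinucleotides in capitals. Of the 9 genes, 7 matched the RefSeq promoter table, Hoxa10 with 2 starts.
Hoxa5 (chr6:52204538-52204837): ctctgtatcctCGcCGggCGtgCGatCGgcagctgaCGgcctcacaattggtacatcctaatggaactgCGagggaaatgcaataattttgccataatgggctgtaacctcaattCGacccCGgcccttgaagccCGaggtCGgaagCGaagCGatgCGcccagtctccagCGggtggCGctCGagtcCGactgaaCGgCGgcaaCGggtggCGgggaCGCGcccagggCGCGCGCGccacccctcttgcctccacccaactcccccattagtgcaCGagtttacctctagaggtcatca
Hoxa7 (chr6:52218524-52218823): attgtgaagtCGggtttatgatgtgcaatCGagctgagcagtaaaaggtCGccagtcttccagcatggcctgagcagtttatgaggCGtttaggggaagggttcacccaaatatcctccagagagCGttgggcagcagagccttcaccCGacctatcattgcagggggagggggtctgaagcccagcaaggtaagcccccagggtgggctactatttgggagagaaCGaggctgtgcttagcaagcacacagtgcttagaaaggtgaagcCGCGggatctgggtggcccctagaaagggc
Hoxa9 (chr6:52227321-52227620): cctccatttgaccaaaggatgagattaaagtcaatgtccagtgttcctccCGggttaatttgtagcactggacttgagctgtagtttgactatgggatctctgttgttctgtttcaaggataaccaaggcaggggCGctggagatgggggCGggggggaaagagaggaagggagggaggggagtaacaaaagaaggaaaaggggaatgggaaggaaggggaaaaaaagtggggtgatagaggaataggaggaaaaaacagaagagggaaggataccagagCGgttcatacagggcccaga
Meis1 (chr11:19018920-19019219): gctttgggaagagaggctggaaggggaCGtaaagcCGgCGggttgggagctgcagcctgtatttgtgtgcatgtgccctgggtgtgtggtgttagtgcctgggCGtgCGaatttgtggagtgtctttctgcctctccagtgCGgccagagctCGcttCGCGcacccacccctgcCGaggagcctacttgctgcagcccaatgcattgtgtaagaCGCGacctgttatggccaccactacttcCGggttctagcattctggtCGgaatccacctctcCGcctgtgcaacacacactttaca
The Hoxa9 and Hoxa7 windows held 4 and 9 CG dinucleotides, the lowest numbers among the 7 Hoxa windows matched. Hoxa3, Hoxa5 and Hoxa6 held 20, 29 and 26, and the 2 Hoxa10 starts held 12 and 21. The median over 32851 promoters in the table was 7. The Meis1 window held 15. The GC content was 49.7% for Hoxa9 and 55.7% for Hoxa7, 61.7% to 64% for Hoxa3, Hoxa5 and Hoxa6, and 54.3% and 57.3% for the Hoxa10 starts. The joint HOX-PBX motif TGATTNAT, searched on both strands, was in none of the 8 windows and in 3.22% of all promoters in the table. The MEIS motif TGACAG, searched likewise and not contained in the first, was in the Hoxa3 window and in 19.2% of all promoters. These matches describe letters only and say nothing of binding. Whether CG number or GC content goes with the changes in level was not tested.

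Expression is given in FPKM, a read density scaled to transcript length and library total, so levels can be compared between genes per length. The deposited tables were scaled separately, and the libraries were put on 1 scale through the on column that the tables share. FPKM hold no read numbers, but low values rise in steps of whole reads. The step of an off library was 0.873 (48 h), 0.964 (72 h) and 0.843 (96 h) times that of the on library. In the on library 1 read times transcript length was worth 59.2 FPKM x bases (median of 112 genes), which gave the approximate read numbers and counting intervals below. These intervals cover counting error only. Of 14 myeloid markers, all of which reached 1 FPKM, 6 fell, 1 rose and 7 did not pass limma's test described below. Over all genes tested, 16% fell and 12.5% rose. The median log2 change of these markers, with 1 FPKM added to both levels, was -0.33, -0.57 and -1.10 at 48 h, 72 h and 96 h. Csf3r rose, to 41.9, 44.7 and 27.8 FPKM off from 12.8 FPKM on. The marker sums were 1069, 931 and 735 FPKM off against 3637 FPKM on. Most of the on sum came from the granule genes Mpo, Elane, Prtn3 and Ctsg. Mpo, the myeloperoxidase of early granulocytes, was at 134, 132 and 120 FPKM off against 990 FPKM on. The B-cell factor gene Pax5 was listed at 0 in all 4 libraries.

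The 9 genes did not move as 1 block after NRASG12V was switched off. Hoxa7 and Hoxa9 fell and Pbx3 rose by limma's test over the 3 off libraries, with Benjamini-Hochberg adjustment over 11887 genes. The other 4 genes tested did not pass, and Hoxa4 and Hoxa6 never reached the filter of 1 FPKM. Over all genes tested, limma called 28.5%, of which 12.5% were higher and 16% lower, and the 3 called of 7 tested are to be read against that. The on level lay above all 3 off levels for 3 genes (Hoxa5, Hoxa7 and Hoxa9) and below all 3 for 3 genes (Hoxa3, Hoxa4 and Pbx3). It lay among them for 3 genes (Hoxa6, Hoxa10 and Meis1). Such a separation is common here, since all off levels were below the on level for 45.8% of genes and above it for 33.6%, together 79.4%. The test takes the 3 times as samples of 1 off state and has 2 residual degrees of freedom. The single on library is taken to scatter as the off libraries do. The labels do not state separate animals, and p-values then measure only the spread between these libraries, which may be technical.

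**Figure D1:**
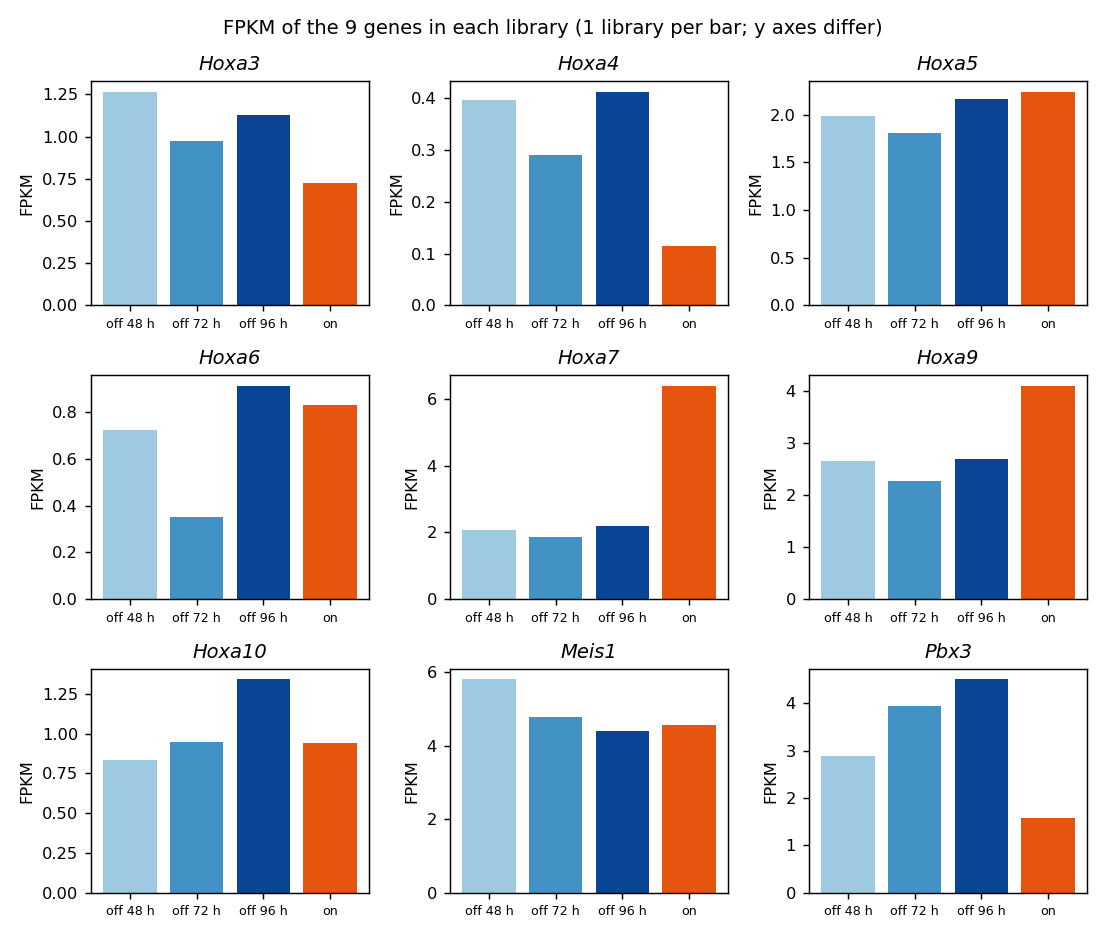
FPKM of each of the 9 genes (y axis, from 0, with its own range per panel) in the off libraries of 48 h, 72 h and 96 h and in the on library (x axis), 1 library per bar. Hoxa7 stands at 1.85 to 2.18 FPKM in the off libraries against 6.40 FPKM on, and Pbx3 at 2.88 to 4.50 FPKM off against 1.57 FPKM on.

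Hoxa7, a mid-cluster gene that MLL fusions keep on, showed the largest log2 change among the 7 genes tested. Its level was 2.08 FPKM at 48 h, 1.85 FPKM at 72 h and 2.18 FPKM at 96 h off, against 6.40 FPKM on. The off libraries lay close together and far below the on library, with no overlap. The off level was 0.325, 0.289 and 0.340 times the on level, with approximate 95% counting intervals of 0.251 to 0.420, 0.215 to 0.378 and 0.264 to 0.437. The change is stated from here on as log2((off FPKM + 1)/(on FPKM + 1)), a scale that understates the change of genes this low. On it Hoxa7 fell by 1.29 ± 0.08 (SD, n = 3 off libraries; limma, Benjamini-Hochberg adjusted p = 0.00152). Of the 9 genes, 6, 5 and 7 reached 1 FPKM in a library compared at 48 h, 72 h and 96 h, and Hoxa7 was the only one at least 2-fold lower at each time. Over all genes, 4.74%, 5.64% and 8.08% were as much lower, and 9.62%, 12.1% and 15.3% changed 2-fold either way.

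Of 18 genes taken as pan-leukocyte, 8 fell, none rose and 10 did not pass, whereas over all genes tested 16% fell and 12.5% rose. Their summed level was 3911, 3112 and 2388 FPKM off against 5384 FPKM on, and their median log2 change was -0.46, -0.82 and -1.13 at 48 h, 72 h and 96 h. Set against that median, the log2 change of Hoxa7 with the pseudocount was -0.81, -0.55 and -0.09. The pseudocount shrinks the change of Hoxa7 more than that of these far more abundant genes, so these values understate its distance from the median. Without a pseudocount the log2 ratio of Hoxa7 was -1.62, -1.79 and -1.55. In bulk RNA, fewer cells of a type and less RNA per cell cannot be told apart, and the part of leukocyte content in the Hoxa7 difference was not tested.

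Hoxa9, the best known effector of MLL fusions in myeloid leukaemia, also fell, close to the test's threshold. Its level was 2.66, 2.26 and 2.69 FPKM at 48 h, 72 h and 96 h off, against 4.11 FPKM on. All 3 off libraries were lower than the on library, and their counting intervals of 0.528 to 0.792, 0.443 to 0.687 and 0.535 to 0.798 times the on level did not reach an equal level. The mean log2 change was -0.53 ± 0.10 (SD, n = 3; limma, Benjamini-Hochberg adjusted p = 0.0498). That call was lost without the 72 h library (limma, Benjamini-Hochberg adjusted p = 0.210) and under 5 other settings of the test. Relative to the pan-leukocyte median the log2 change of Hoxa9 with the pseudocount was -0.02, 0.18 and 0.66 at 48 h, 72 h and 96 h. Here too the pseudocount shrinks the change of Hoxa9 more than that of the pan-leukocyte genes. Without it the log2 ratio of Hoxa9 was -0.63, -0.86 and -0.61, beside medians of -0.46, -0.82 and -1.13. The sign at 72 h thus depends on the pseudocount.

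Hoxa5, a neighbour in the middle of the cluster, stood at 1.98, 1.81 and 2.17 FPKM off against 2.24 FPKM on. The off libraries were all slightly lower, and each counting interval included an equal level, from 0.567 times the on level at its lowest to 1.34 times at its highest. Its mean log2 change of -0.12 ± 0.09 did not pass (limma, Benjamini-Hochberg adjusted p = 0.619) and was 0.023 after rescaling outside globins and short RNA.

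Hoxa3, at the 3′ side of the cluster, was at 1.27, 0.974 and 1.13 FPKM off against 0.725 FPKM on. The off values were all above the on value. Its ratio was 1.75 at 48 h (counting interval 1.13 to 2.74), 1.34 at 72 h (0.840 to 2.17) and 1.56 at 96 h (1.004 to 2.46). The mean log2 change of 0.30 ± 0.10 did not pass (limma, Benjamini-Hochberg adjusted p = 0.214), and Hoxa3 reached the filter through off libraries alone, which favours a rise. The annotated span of Hoxa3 overlaps Hoxa4, Hoxa5 and Hoxa6 on the same strand, so reads there may be divided between these genes.

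Hoxa4 was listed at 0.396, 0.291 and 0.413 FPKM off against 0.114 FPKM on, about 13, 8 and 14 reads against 3 reads. The on library holds so few reads that its ratios of 3.49, 2.56 and 3.63 have counting intervals of 1.04 to 20.7, 0.617 to 15.04 and 1.10 to 21.3. Hoxa6 was at 0.724, 0.352 and 0.914 FPKM off against 0.832 FPKM on, about 13, 6 and 17 reads against 13. The off libraries lay on both sides of the on library, and a difference was not detectable at this depth.

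Hoxa10, the most 5′ of these Hoxa genes and another regulator of myeloid progenitors, stood at 0.836, 0.944 and 1.34 FPKM off against 0.940 FPKM on. The on value lay among the off values. Hoxa10 passed the filter through the 96 h library alone, its mean log2 change was 0.06 ± 0.18 (limma, Benjamini-Hochberg adjusted p = 0.823), and all counting intervals included an equal level. The labels do not say whether reads were counted by strand, and the transcript Hoxaas3 overlaps Hoxa3 to Hoxa7 on the opposite strand, so reads of either strand cannot be told apart there.

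**Figure D2:**
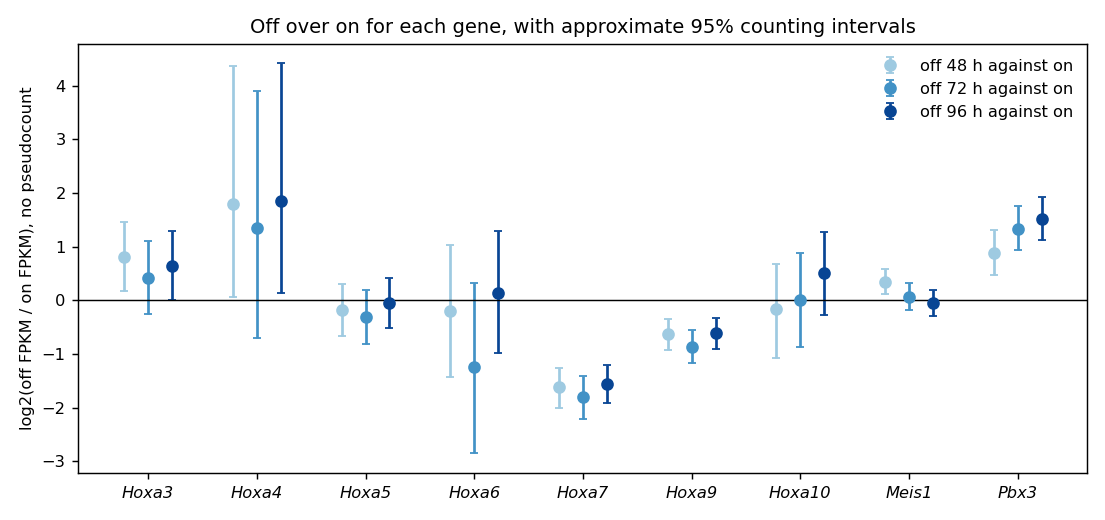
Log2 ratio of off FPKM to on FPKM without a pseudocount (y axis) for each gene (x axis) at 48 h, 72 h and 96 h, 1 point per off library, with approximate 95% counting intervals as bars. The bars of Hoxa7 and Hoxa9 lie below 0 and those of Pbx3 above 0 at every time, while those of Hoxa5, Hoxa6 and Hoxa10 cross it.

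Shares within a library do not depend on how that library was scaled. Hoxa7 made up 20.9%, 21.8% and 20.1% of the summed FPKM of the 7 Hoxa genes at 48 h, 72 h and 96 h off, against 41.7% on. The share of Hoxa9 was 26.7%, 26.7% and 24.8% off against 26.7% on. That of Hoxa3 was 12.7%, 11.5% and 10.4% off against 4.72% on, and that of Hoxa5 20.0%, 21.3% and 20.0% off against 14.6% on. Shares are parts of the same sum, so the lower Hoxa7 level by itself raises the shares of the other genes. In FPKM, Hoxa5 was at 1.98, 1.81 and 2.17 off against 2.24 on. Hoxa9 was at 2.66, 2.26 and 2.69 FPKM off against 4.11 FPKM on. The ratio of Hoxa7 to Hoxa9 was 0.784, 0.816 and 0.810 in the off libraries and 1.56 in the on library. By listed value, Hoxa7 thus stood above Hoxa9 in the on library and below it in every off library. The off ratios rest on about 84, 67 and 91 reads of Hoxa7 and 172, 133 and 180 of Hoxa9. No counting interval was computed for this ratio, so the order within a single off library is uncertain. The summed level of Hoxa7, Hoxa9 and Hoxa10 was 5.57, 5.05 and 6.21 FPKM off against 11.4 FPKM on. Within that sum Hoxa7 was at 2.08, 1.85 and 2.18 FPKM off against 6.40 FPKM on, whereas the on value of Hoxa10 lay among its off values. The sum of Hoxa3 to Hoxa6 was 4.37, 3.42 and 4.62 FPKM off against 3.92 FPKM on, on both sides of the on level.

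**Figure D3:**
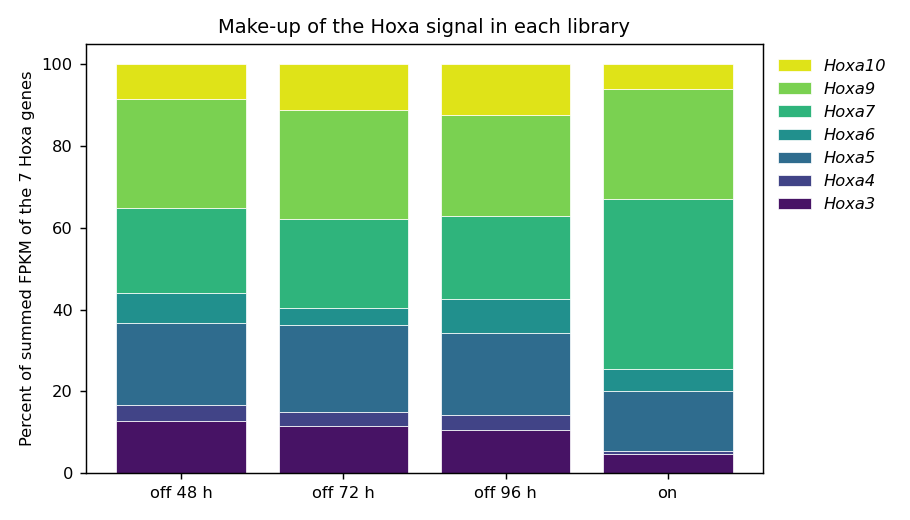
Percent of the summed FPKM of the 7 Hoxa genes (y axis) held by each gene (colours) in the off libraries of 48 h, 72 h and 96 h and in the on library (x axis). The Hoxa7 segment is 20.1% to 21.8% in the off libraries and 41.7% in the on library, and the Hoxa9 segment is 24.8% to 26.7% in the off libraries and 26.7% in the on library.

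Meis1, the TALE partner that speeds leukaemia driven by Hoxa9, had 5.81 FPKM at 48 h, 4.77 FPKM at 72 h and 4.40 FPKM at 96 h off, against 4.55 FPKM on. The 48 h library was the highest, and the on value lay among the off values. The ratio was 1.28 at 48 h (counting interval 1.08 to 1.50), 1.05 at 72 h (0.880 to 1.25) and 0.965 at 96 h (0.813 to 1.15). The mean log2 change was 0.10 ± 0.17 (SD, n = 3; limma, Benjamini-Hochberg adjusted p = 0.725). The ratio of Meis1 to Hoxa9 was 2.19, 2.11 and 1.63 off against 1.11 on.

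Pbx3, a partner that stabilises Hoxa9 and Meis1 on DNA, was higher in every off library. Its level was 2.88 FPKM at 48 h, 3.95 FPKM at 72 h and 4.50 FPKM at 96 h off, against 1.57 FPKM on. The off values did not overlap the on value and were higher at each later time. The ratio was 1.84 (counting interval 1.38 to 2.48), 2.52 (1.91 to 3.37) and 2.87 (2.20 to 3.80). Pbx3 rose by 0.88 ± 0.25 on the log2 scale (SD, n = 3; limma, Benjamini-Hochberg adjusted p = 0.0173), a call lost when no filter on low values was used (adjusted p = 0.0608). With the pseudocount of 1 and the filter of 1 FPKM, it was at least 2-fold higher at 96 h, as were 7.18% of genes. On that scale none of the 9 genes was at least 2-fold higher at 48 h or 72 h, where 4.87% and 6.5% of genes were. The ratio of Pbx3 to Meis1 was 0.496, 0.828 and 1.02 off against 0.345 on.

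Markers of other cells moved in the same libraries, where 12.5% of all genes tested rose and 16% fell. Of 20 erythroid genes 18 rose and none fell, with a summed level of 33400, 48363 and 38836 FPKM off against 10847 FPKM on. The globin genes Hba-a1 and Hba-a2 were listed at 0 at 96 h, against 11914 and 424 FPKM at 72 h. The erythroid sum at 96 h thus lacks them and cannot be set beside the earlier sums. Of 12 megakaryocyte genes 8 rose and none fell, with sums of 611, 620 and 727 FPKM off against 413 FPKM on. Of 12 endothelial and stromal genes 10 were tested, of which 5 rose, 1 of them reaching the filter through off libraries alone, and 1 fell. Their list summed to 417, 448 and 284 FPKM off against 282 FPKM on. Of 12 lymphoid genes 6 were tested, of which 3 rose, 1 of them reaching the filter through off libraries alone, and 2 fell. Their list summed to 46.7, 38.5 and 36.8 FPKM off against 67.2 FPKM on. The part of these cells in the levels of Pbx3, Meis1 and the Hoxa genes, and in those of the gene lists below, was not tested.

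In the on library the order of levels per length was Hoxa7, Meis1, Hoxa9, Hoxa5, Pbx3, Hoxa10, Hoxa6, Hoxa3 and Hoxa4. Hoxa7 at 6.40 FPKM (counting interval 5.59 to 7.29) stood apart from Meis1 at 4.55 FPKM (4.01 to 5.15), whereas the intervals of Meis1 and of Hoxa9 at 4.11 FPKM (3.60 to 4.67) overlapped. Over the off libraries the order was Meis1 at 4.99 ± 0.73 FPKM, Pbx3 at 3.78 ± 0.82, Hoxa9 at 2.54 ± 0.24, Hoxa7 at 2.04 ± 0.17 and Hoxa5 at 1.99 ± 0.18 (mean ± SD, n = 3). The off ranges of Meis1 and Pbx3 overlapped, as did those of Hoxa7 and Hoxa5. Hoxa9 lay above Hoxa7 in each off library by listed value, without a counting interval for that difference. All 9 genes were modestly expressed. In the on library 38.4% of the genes tested lay at or below the level of Hoxa7, 30.3% at or below Meis1, 28.2% at or below Hoxa9 and 12.1% at or below Pbx3.

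Between 96 h and 48 h off, none of the 9 genes differed by 2-fold, as did 0.728% of genes (0.381% higher and 0.346% lower). Pbx3 at 96 h was 1.56 times its 48 h level, Hoxa10 1.60 times and Meis1 0.757 times. Hoxa7 and Hoxa9 at 96 h were 1.05 and 1.013 times their 48 h levels, so their low levels were present at the first off time sampled.

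Of the other 32 Hox genes in the tables, Hoxb4, a regulator of stem cell expansion, was the only one to reach 1 FPKM. It was at 1.22, 1.59 and 1.34 FPKM off against 0.784 FPKM on, and its log2 change of 0.41 ± 0.11 did not pass (limma, Benjamini-Hochberg adjusted p = 0.101). Of these 32 genes, 15 were listed at 0 in all libraries.

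Among 10 other TALE family and partner genes, 7 were tested, 3 rose, 2 of them reaching the filter through off libraries alone, and none fell. The median log2 change was 0.59, beside -0.08 over all genes, of which 12.5% rose and 16% fell. The repressor Tgif2 rose by 0.78 ± 0.15 and Meis3, a Meis1 paralogue, by 0.69 ± 0.13 (limma, Benjamini-Hochberg adjusted p = 0.0150 and 0.0195). Tgif2 was at 2.97, 3.55 and 3.92 FPKM off against 1.59 FPKM on, with no overlap. Meis3 was at 0.728, 0.957 and 1.11 FPKM off against 0.193 FPKM on and reached the filter at 96 h alone. Pbx2, the most abundant Pbx gene here, was at 28.5, 27.9 and 22.8 FPKM off against 27.04 FPKM on and did not pass (adjusted p = 0.896).

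Of 25 genes of the MLL, DOT1L and elongation complexes, which keep Hoxa genes transcribed, 5 rose and 1 fell. Over all genes tested, 12.5% rose and 16% fell. The median log2 change of the list was -0.06, beside -0.08 over all genes. The elongation factor Ell2 rose by 2.25 ± 0.29, Mllt3, the AF9 gene, by 1.34 ± 0.33, Psip1, which tethers MLL to chromatin, by 0.998 ± 0.262 and the H3K79 methyltransferase Dot1l by 0.64 ± 0.16 (limma, Benjamini-Hochberg adjusted p from 0.000758 to 0.0406). The PAF complex subunit Ctr9 changed by -0.82 ± 0.13 (adjusted p = 0.0141). Dot1l stood at 16.0, 19.0 and 20.2 FPKM off against 11.4 FPKM on (limma, Benjamini-Hochberg adjusted p = 0.0406). The part of Mll-AF9 fusion reads in the level of Mllt3 was not tested. Menin, Men1, needed by MLL fusions at Hoxa genes, was at 12.1, 10.04 and 11.7 FPKM off against 11.7 FPKM on and did not pass (adjusted p = 0.851).

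Polycomb proteins silence Hox clusters, some of them by methylating H3K27. Of 22 Polycomb genes and H3K27 demethylases, 1 rose and 3 fell, beside 12.5% and 16% over all genes tested. The median log2 change of the list was 0.05. Phf1 rose by 1.02 ± 0.08, whereas its relative Phf19 changed by -1.29 ± 0.21 and the cofactor Jarid2 by -0.71 ± 0.05 (limma, Benjamini-Hochberg adjusted p from 0.00272 to 0.0196). Phf19 was at 1.86, 2.28 and 2.77 FPKM off against 7.04 FPKM on, with no overlap. The methyltransferase gene Ezh2 was at 41.8, 51.7 and 53.9 FPKM off against 43.8 FPKM on and did not pass (adjusted p = 0.619).

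Among 27 genes reported downstream of Hoxa9 or Meis1, 24 were tested, 10 fell and 4 rose, with a median of -0.38. Of those that fell, 1 reached the filter through the on library alone. The list gives no direction of regulation for its genes, so its median does not measure the activity of Hoxa9 or Meis1. Over all genes tested, 16% fell and 12.5% rose. The mean log2 change was -1.93 ± 0.08 for the stem cell antigen Cd34, -1.90 ± 0.39 for the chemokine Ccl3, -1.68 ± 0.12 for the inhibitor of differentiation Id2 and -1.54 ± 0.27 for the chemokine Ccl4 (limma, Benjamini-Hochberg adjusted p from 0.000571 for Cd34 to 0.00185 for Ccl4). The blood regulator Lmo2, which erythroid cells use too, rose by 0.78 ± 0.19, Trib2 by 0.76 ± 0.10, the growth factor Igf1 by 0.74 ± 0.17 and the platelet integrin Itgb3 by 0.64 ± 0.05 (adjusted p from 0.0127 to 0.0348). Flt3, a receptor gene bound by Hoxa9 and Meis1, was at 21.5, 20.4 and 19.6 FPKM off against 20.1 FPKM on and did not pass (adjusted p = 0.917). Myb was at 17.3, 18.3 and 20.2 FPKM off against 34.1 FPKM on with a mean change of -0.85 ± 0.11 (adjusted p = 0.0119). The part of the myeloid, leukocyte and erythroid marker shifts in these changes was not tested.

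**Figure D4:**
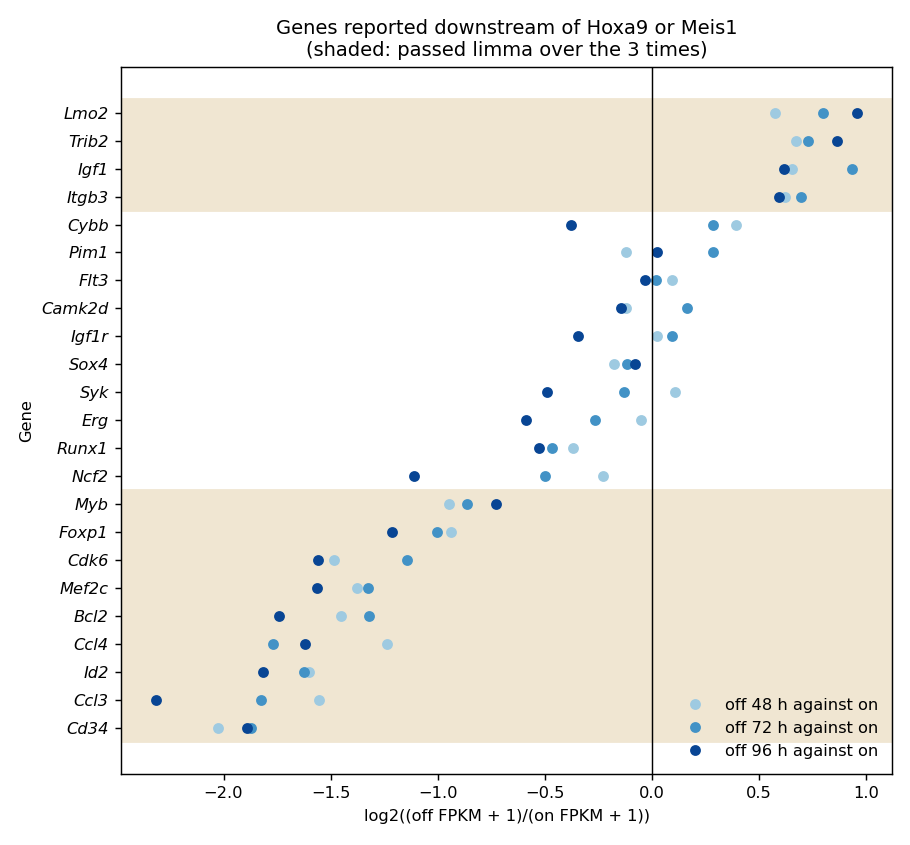
Log2 change of the 23 genes reported downstream of Hoxa9 or Meis1 that reached 1 FPKM in both the on library and an off library (y axis, ordered by mean change) at 48 h, 72 h and 96 h off against on (x axis, 1 point per off library). Shaded genes passed limma's test, the 9 lowest falling and the 4 highest rising, from Cd34 at a mean of -1.93 to Lmo2 at 0.78.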

How the data were processed

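The deposited values are FPKM per gene in 4 tables. The submitters' processing notes name TopHat2 2.0.4, Cuffdiff and build mm9. No version of Cuffdiff, gene annotation or strand setting was given here, and depth is known only from the steps of low values. Each of 3 tables pairs the on library (headed 0 hours) with 1 off library, and the fourth with a combined off value. From 1 table to another the on column differed by 1 factor (99.9% of values within 0.1%), which set the common scale. The 9 genes and all lists were chosen with earlier results of these data known, and 172 of 174 list entries matched a row. Log2 changes used a pseudocount of 1 FPKM. Genes at 1 FPKM or more in any library, short RNA rows left out, were tested with limma 3.58.1 (statmod 1.5.0, R 4.3.3) with trend and robust eBayes. A trial on simulated data gave the on library the spread of the off libraries. It therefore cannot test that assumption. Counting intervals are exact binomial ones (scipy 1.17.1) on approximate reads, using each gene's shortest RefSeq transcript in GENCODE M21. Named from each list were the genes called, up to 4 a direction by size of change, and some of these are not reported here. Pbx2, Men1, Ezh2, Flt3, Myb, Mpo, Pax5 and the Hba genes were named after their values were seen. Promoters are RefSeq's, build GRCm38.p6.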

Additional observations from a re-analysis of the deposited data

Results flagged for a closer look

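Meis1, Hoxa10 and Hoxa6 stood above the on library at some off times and below it at others. The highest and lowest log2 changes of Meis1, at 48 h and 96 h, were 0.34 apart, those of Hoxa10, at 96 h and 48 h, 0.35 apart and those of Hoxa6, at 96 h and 72 h, 0.50 apart. With 1 library at each time these differences were not tested.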

How the results depend on the processing

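No paired analysis was possible because each group holds 1 library. The median change of genes expressed in both libraries was -0.15, -0.09 and -0.07 on the log2 scale at 48 h, 72 h and 96 h, and rescaling outside globins and short RNA added 0.22, 0.23 and 0.19. Hoxa7 passed limma's test under all 10 alternatives (Benjamini-Hochberg adjusted p 6.5e-05 to 0.0170), and Pbx3 under all but no filter (0.0608), being left out by a filter of 5 FPKM. Hoxa9 was lost under 6 of the 9 settings that tested it (adjusted p 0.0565 to 0.210). Members called numbered 3, but 1 without a filter and 1 with a filter of 5 FPKM, and 2 to 3 when an off library was left out. Genes called numbered 3391 (2362 to 4404 with an off library left out), 1484 higher (1141 to 1981) and 1907 lower (1221 to 2490, the lowest without the 72 h library). Rescaling gave 2098 higher and 1062 lower, and a median set to 0 gave 1886 and 1344. Hoxa5 turned to 0.023 with rescaling, and Hoxa10 was at -0.039 to 0.136 with an off library left out, the lowest without 96 h, neither past the test. Genes at least 2-fold changed at 48 h, 72 h and 96 h numbered 1125, 1421 and 1781. With a pseudocount of 5 FPKM they were 506, 660 and 887, with 0.1 FPKM 1799 and 2153 at the first 2 times, and relative to the pan-leukocyte median 1723, 3985 and 6441. Members so changed numbered 1, 1 and 2. They were 0 at each time with a pseudocount of 5 FPKM, 2 at 72 h with 0.1 FPKM, a median of 0 or rescaling, 5 at 96 h relative to pan-leukocyte genes and 1 in the combined table, against 2 at 96 h. Between 96 h and 48 h, 84 genes became 238 with a pseudocount of 0.1 FPKM and 23 with 5 FPKM. The causes were not tested. Genes under about 1 FPKM, here Hoxa4 and Hoxa6, rest on 3 to 17 reads a library.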

Other observations

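Among 8067 genes at 5 FPKM or more in the on library, those whose 3 log2 changes were closest to Hoxa9's, by root mean square difference over the 3 off libraries, were Snrpa (0.0274), 2810422J05Rik (0.0281), Aldh16a1 (0.0285), 2210013O21Rik (0.0295) and Ndufs8 (0.0318), and 211 genes lay within 0.1. Closest to Meis1 were P2rx4 (0.0171), Mid1ip1 (0.0207), C1qb (0.0289), Vav2 (0.0361) and Treml2 (0.0409), with 61 genes within 0.1. These log2 changes include the pseudocount, which shrinks those of Hoxa9, at 4.11 FPKM on, more than those of Snrpa, at 73.0 FPKM on. Without it the log2 ratio of Hoxa9 was -0.63, -0.86 and -0.61 at 48 h, 72 h and 96 h. The genes listed as close to Hoxa9, and their number, thus depend on the pseudocount. All changes share the on library, so likeness over 3 values is a description.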
